A study of Drosophila melanogaster with 6 samples.

Results

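The Rab genes encode small GTPases that give each membrane compartment of a cell its identity. They were taken from the deposited table by name, as Rab or RabX followed by digits and at most 2 letters without a hyphen, which found 33 of its 17649 genes. Whole eyes of Canton S, a wild-type Drosophila melanogaster strain, were dissected from pupae at 21 h and 40 h APF (hours after puparium formation). Each stage had 3 replicates, and by their labels the groups differ in age alone, with no mutant and no treatment. The day on which each replicate was dissected is not given in the sources used here. RNA sequencing was summarized by the authors as FPKM, a level that is scaled to the length of the transcript and to the size of the library. Comparisons of FPKM between genes are rough, because reads that span introns were not split in the alignment. The FPKM of genes with many short exons can therefore be too low. The table holds 1 FPKM per gene and stage, pooled over the 3 replicates, so no value below has an SD, no difference was tested, and the spread between replicates is unknown. The table holds no read counts, so the depth behind a value is not known from it.

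A Rab protein is active while bound to GTP and is then held on a membrane by a prenyl anchor, where it recruits effectors such as tethers, motors and adaptors. Exchange factors load it with GTP, GTPase activating proteins switch it off, and Gdi and Rep, an escort pair, carry the prenylated protein through the cytosol. In the fly eye these proteins serve the delivery of rhodopsin to the light-sensing membrane, the endocytosis of signaling receptors and the making of pigment granules. Rab32, whose mutant form is known as lightoid, belongs to the last of these.

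A gene was counted as expressed at 1 FPKM or more at either stage. This was reached by 26 of the 33 Rab genes (78.8%), against 55.7% of all genes in the table. The table also holds noncoding genes, so these shares are of unlike sets. The comparison asked which Rab genes differed in level between 21 h, when the lattice of the eye is still being patterned, and 40 h, when it is complete. Of the 26 expressed genes, 22 were higher and 4 were lower at 40 h, whereas 49.1% of all 9828 expressed genes were higher. Their median log2 ratio of 40 h over 21 h, with 0.1 FPKM added at both stages, was 0.23, and that of all expressed genes was -0.017. The differences were small for most of them. A difference of at least 2-fold was met by 2 Rab genes that were higher at 40 h, Rab32 and Rab26. Among all expressed genes, 14.8% were that much higher. Rab27 alone was at least 2-fold lower, where 10.7% of all expressed genes were, and it reached 1 FPKM at 21 h only. At 1.5-fold, 6 Rab genes were higher and 1 was lower, beside 22.6% and 18.7% of all expressed genes, and 19 of the 26 lay within 1.5-fold. The interquartile range of the log2 ratios was 0.42 wide for the Rab genes and 0.94 wide for all expressed genes. These sets differ in level, with a median at 21 h of 35.6 FPKM for the 26 Rab genes and 16.2 for all expressed genes.

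**Figure D1:**
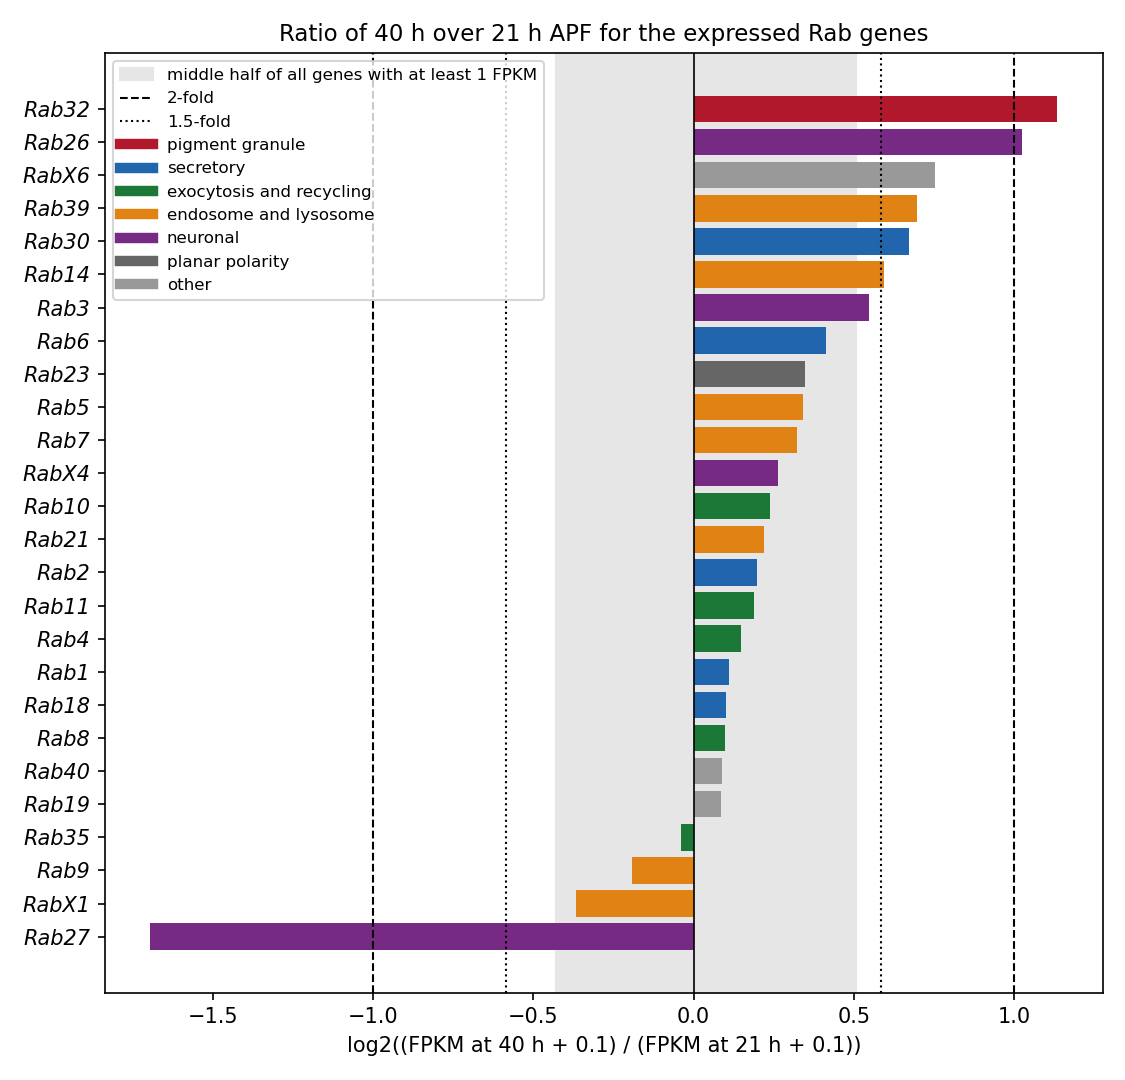
Bars give the log2 ratio of 40 h over 21 h APF (x axis, 0.1 FPKM added) for the 26 expressed Rab genes, coloured by group of function. The shaded band is the interquartile range of all expressed genes, dashed lines mark 2-fold and dotted lines 1.5-fold. Rab32 at 1.13 and Rab26 at 1.03 pass 2-fold above and Rab27 at -1.70 below.

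Rab32 was the most abundant Rab gene at both stages. It acts on lysosome-related organelles, the class to which the pigment granules of the fly eye belong. Rab32 (FBgn0002567, at chr2R:9177864-9186342 of BDGP6, minus strand) had 311 FPKM at 21 h against 682 at 40 h APF, a 2.20-fold higher level and a log2 ratio of 1.13. At 21 h its level was 1.67 times that of the next Rab gene, Rab11, and at 40 h it was 3.21 times that level. Its rank among all genes of the table was 224 at 21 h and 145 at 40 h. No exon base of Rab32 is shared with another gene of the table.

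The summed FPKM of the 33 Rab genes was 1590 at 21 h and 2217 at 40 h APF, a 1.39-fold higher sum. Rab32 made up 59.3% of that difference, and its share of the sum was 19.5% at 21 h and 30.8% at 40 h. Without Rab32, which was left out after its values were seen, the sums were 1279 and 1534 FPKM, a 1.20-fold difference. The FPKM of all genes summed to nearly the same total at both stages, 557572 at 21 h and 562299 at 40 h.

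**Figure D2:**
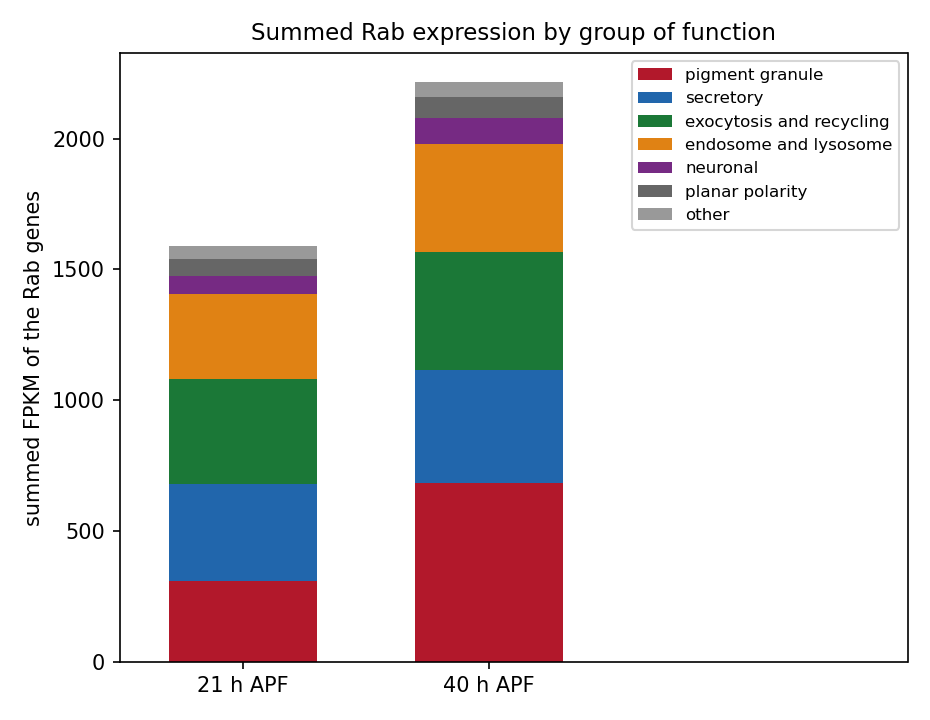
Stacked bars give the summed FPKM (y axis, from 0) of the Rab genes at 21 h and 40 h APF, by group of function. The Rab32 segment, labelled pigment granule, is 311 FPKM high at 21 h and 682 FPKM high at 40 h, and the next largest difference is that of the endosome and lysosome segment, 323 FPKM high at 21 h and 415 FPKM high at 40 h.

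Other genes of the traffic to the pigment granule differed less than Rab32. The gene claret (ca) encodes the protein thought to be the exchange factor of Rab32 in flies. It had 20.2 FPKM at 21 h against 21.2 at 40 h APF, a log2 ratio of 0.069. The list of granule traffic genes held ca, the AP-3 adaptor genes or, g, rb and cm, the vacuolar sorting genes dor, car and lt, and also p and Blos1. Of these 10 genes, 8 were higher and 2 were lower at 40 h, beside 49.1% of all expressed genes that were higher, and their median log2 ratio was 0.11. None passed 2-fold, which 14.8% of all expressed genes did above and 10.7% below. The largest of those ratios was that of p (pink), with 36.9 FPKM at 21 h against 68.9 at 40 h and a log2 ratio of 0.90.

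The 5 Rab genes of the endoplasmic reticulum and the Golgi apparatus were all higher at 40 h, where 49.1% of all expressed genes were. None passed 2-fold, which 14.8% of all expressed genes did above and 10.7% below. Rab1, which acts in transport from the endoplasmic reticulum to the Golgi apparatus, had 140 FPKM at 21 h against 151 at 40 h APF. Rab2, of the Golgi apparatus and of fusion with lysosomes, had 110 FPKM at 21 h against 126 at 40 h. Rab6, which serves traffic within and out of the Golgi apparatus, had 71.1 FPKM at 21 h against 94.8 at 40 h, a log2 ratio of 0.41. The ratio was largest for Rab30, another Golgi Rab (FBgn0031882, at chr2L:7030493-7032606), which had 22.1 FPKM at 21 h against 35.4 at 40 h, a log2 ratio of 0.67. Rab18, of the endoplasmic reticulum and lipid droplets, was nearly level, with 24.5 FPKM at 21 h against 26.3 at 40 h. Of the exon bases of Rab1, 41.1% are also exon bases of CR45798 on the opposite strand, a gene with 4.93 FPKM at 21 h against 4.29 at 40 h.

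The Rab genes of exocytosis and recycling had the narrowest spread of the groups with several expressed genes, with log2 ratios between -0.040 and 0.24. Rab11, of the recycling endosome and needed in flies to bring rhodopsin to the rhabdomere, had 186 FPKM at 21 h against 212 at 40 h APF, second to Rab32 at both stages. Rab4, which acts in fast recycling, had 71.9 FPKM at 21 h against 79.8 at 40 h. Rab8, of transport from the Golgi apparatus to the plasma membrane, had 53.7 FPKM at 21 h against 57.5 at 40 h, close to Rab10, of polarized secretion, which had 53.4 FPKM at 21 h against 62.9 at 40 h. Only Rab35, which links recycling to actin, was lower at 40 h in this group, with 37.4 FPKM at 21 h against 36.4 at 40 h.

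**Figure D3:**
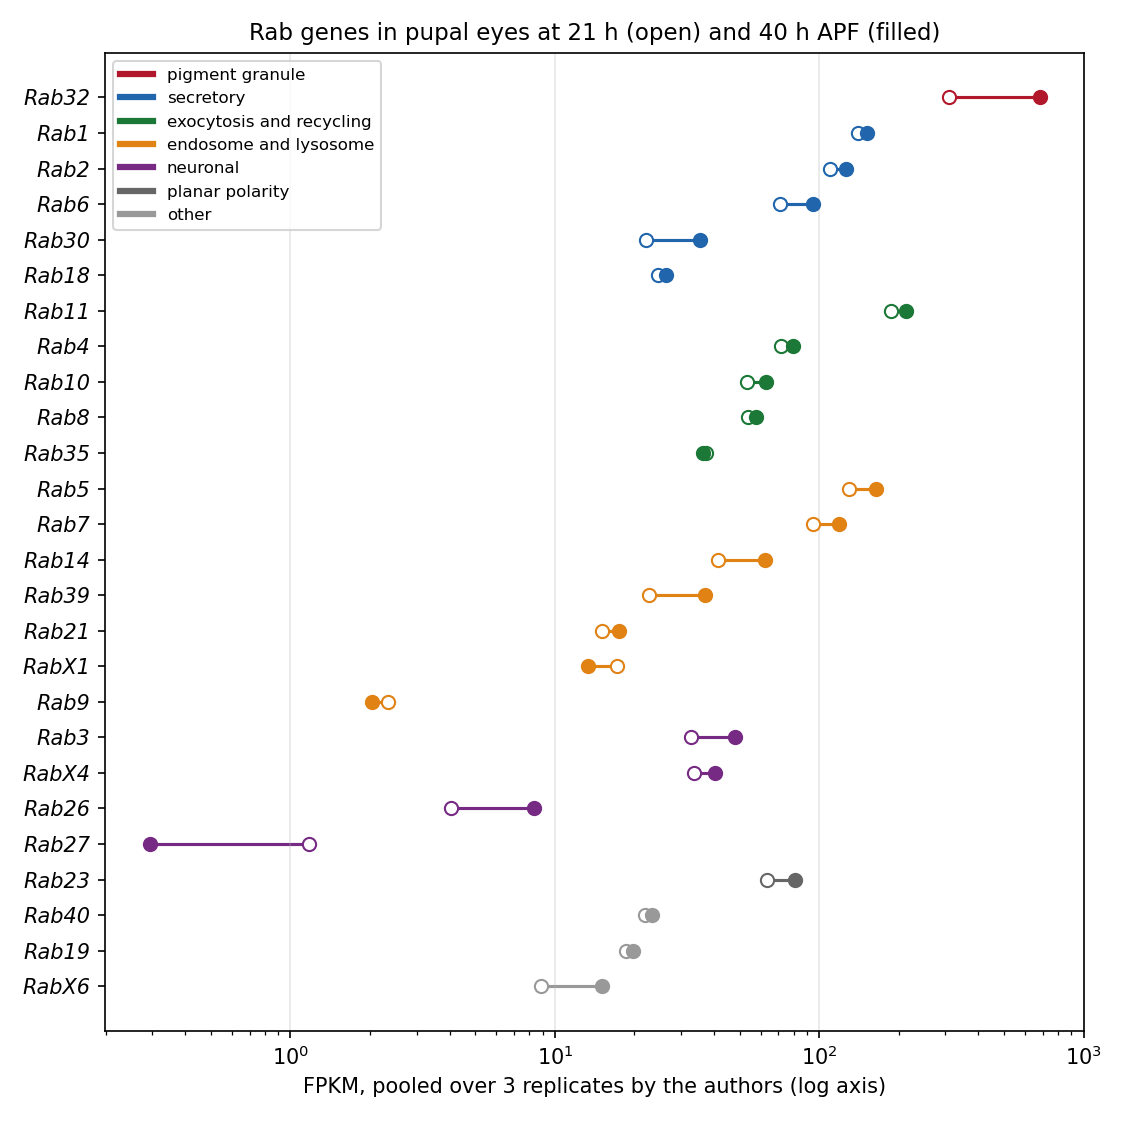
Each line joins the FPKM of a Rab gene (x axis, log scale) at 21 h APF (open circle) and at 40 h APF (filled circle), for the 26 expressed genes ordered by group of function. Most pairs of circles lie close together, and the widest gaps are those of Rab27, from 1.17 to 0.293 FPKM, Rab32, from 311 to 682 FPKM, and Rab26, from 4.05 to 8.34 FPKM.

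Among the Rab genes of endosomes and lysosomes, 5 were higher and 2 were lower at 40 h. The share of all expressed genes that were higher was 49.1%. Rab5, which drives the fusion of early endosomes, had 129 FPKM at 21 h against 164 at 40 h APF, a log2 ratio of 0.34. Rab7, which takes late endosomes to lysosomes, had 95.1 FPKM at 21 h against 119 at 40 h, a log2 ratio of 0.32. These are the most abundant members of the group, and their ratios lay close together. The larger ratios belonged to Rab39, of lysosomes (FBgn0029959, at chrX:7734923-7736756), with 22.7 FPKM at 21 h against 36.9 at 40 h and a log2 ratio of 0.70, and to Rab14, of endosomes and phagosomes (FBgn0015791, at chr2L:14355145-14358764), with 41.4 FPKM at 21 h against 62.5 at 40 h and a log2 ratio of 0.59. Rab21, of early endosomes and integrin traffic, had 15.04 FPKM at 21 h against 17.5 at 40 h. The lower ones were RabX1, with 17.2 FPKM at 21 h against 13.3 at 40 h and a log2 ratio of -0.37, and Rab9, which returns cargo from late endosomes to the Golgi apparatus, with 2.33 FPKM at 21 h against 2.03 at 40 h.

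The 4 Rab genes of neuronal and regulated secretion did not share a direction. Rab3, which acts in the release of synaptic vesicles (FBgn0005586, at chr2R:10721335-10729203), had 32.7 FPKM at 21 h against 47.9 at 40 h APF, a log2 ratio of 0.55. RabX4, which is enriched in neurons, had 33.7 FPKM at 21 h against 40.5 at 40 h, and CG31357 on the same strand covers 9.25% of the exon bases of RabX4. The level of CG31357 was 41.9 FPKM at 21 h and lower, 27.95, at 40 h. Rab26, linked to clusters of synaptic vesicles (FBgn0086913, at chr3L:21318774-21335027), was less abundant than both, with 4.05 FPKM at 21 h against 8.34 at 40 h, a log2 ratio of 1.03. Rab27, of secretory granules (FBgn0025382, at chrX:1473884-1476974), was the one expressed Rab gene past 2-fold that was lower, with 1.17 FPKM at 21 h against 0.293 at 40 h, a log2 ratio of -1.70. Rab27 reached 1 FPKM at 21 h only, the stage where it was higher, so its call rests on that stage. It was also the least abundant of the 26 at both stages. Neither call held with 1 FPKM added in place of 0.1, where the log2 ratio was 0.89 for Rab26 and -0.75 for Rab27.

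Genes of synaptic neurons were higher at 40 h as well. The list of nSyb, Syt1, brp and Rim summed to 272 FPKM at 21 h against 517 at 40 h APF (Rim, which binds Rab3, is also among the effectors below). Of these, 4 of 4 were higher, beside 49.1% of all expressed genes, with a median log2 ratio of 0.86. In contrast, the neuronal gene elav, listed with the eye markers below, was nearly level, with 84.9 FPKM at 21 h against 89.6 at 40 h. In whole eyes, a different number of cells of a type and a different amount of RNA per cell cannot be told apart, and the part of the neuronal genes in the values of Rab3 and Rab26 was not tested. The tissue label was met by its markers, since gl, a transcription factor of photoreceptors, had 235 FPKM at 21 h against 132 at 40 h. Over the list of 10 eye markers, 9 were lower and 1 was higher at 40 h, where 49.1% of all expressed genes were higher. Their sum was 1115 FPKM at 21 h against 694 at 40 h. The most abundant of them, chp, had 370 FPKM at 21 h against 164 at 40 h. It alone passed 2-fold (10%), lower at 40 h, where 10.7% of all expressed genes were. The 3 glial markers summed to 99.5 FPKM at 21 h against 108 at 40 h. Of these, repo (40.5 and 40.4 FPKM) and moody (55.6 and 56.6 FPKM) were nearly level and Gs2 was 3.31-fold higher, with 3.44 FPKM at 21 h against 11.4 at 40 h. The 3 fat body markers summed to 56.3 and 36.2 FPKM, whereas those of hemocytes (3 genes, with He at 0) and trachea (2 genes) stayed under 1 FPKM in sum at both stages.

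Rab23, which acts in planar cell polarity in flies, had 63.4 FPKM at 21 h against 80.7 at 40 h APF, a log2 ratio of 0.35. Rab40, whose product carries a SOCS box, had 21.9 FPKM at 21 h against 23.3 at 40 h, and Rab19 had 18.6 FPKM at 21 h against 19.7 at 40 h. RabX6 (FBgn0035155, at chr3L:690517-691951) had 8.90 FPKM at 21 h against 15.1 at 40 h, a log2 ratio of 0.75. Of the exon bases of RabX6, 36.2% overlap those of Vti1a on the opposite strand, a SNARE gene that had 9.65 FPKM at 21 h against 17.4 at 40 h, a log2 ratio of 0.85. The methods do not state whether reads were assigned by strand, so reads of RabX6 and Vti1a cannot be told apart where they overlap.

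The other 7 Rab genes stayed below 1 FPKM at both stages, the highest value being 0.442 FPKM for RabX5 at 21 h. They are Rab9D, Rab9Db, Rab9E, Rab9Fa, Rab9Fb, RabX2 and RabX5. Among them, 6 lie on chromosome X within 535 kb, from 10417429 to 10952486, and each of these 6 has a single exon. RabX5, on chromosome 3L, has 6 exons. Of the 26 expressed genes, in contrast, 7 lie on chromosome X and 1, Rab6, has only transcripts of a single exon. Of the 7 genes, 4 lie inside another gene without sharing its exons, which are Rab9Fa and Rab9Fb in Myo10A, Rab9E in X11Lbeta and RabX2 in CG32683. The hosts were at quite different levels, since Myo10A had 25.9 FPKM at 21 h against 64.4 at 40 h, X11Lbeta had 82.7 and 41.5 FPKM, and CG32683 had 0.589 and 0.564 FPKM. Rab9D and Rab9Fb are each listed at 0 at a single stage, at 40 h and at 21 h, so that no fold is given for them. Reads that match several of the similarly named Rab9 genes could have been split between them, so that their single values are uncertain. The annotated proteins of Rab9D, Rab9Db, Rab9E and Rab9Fa all have 197 residues and that of Rab9Fb has 214, whereas the longest protein of the expressed genes has a median of 219 residues and reaches 686 for Rab32, whose shortest form has 214.

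The genes that act on or with Rab proteins were described from a list of 60, of which 58 were found in the table and all 58 were expressed. Of these, 40 (69.0%) were higher and 18 were lower at 40 h, beside 49.1% of all expressed genes that were higher. Their median log2 ratio was 0.13, and that of all expressed genes was -0.017. At least 2-fold higher were 3 genes, or 5.17%, where 14.8% of all expressed genes were, and none was 2-fold lower, where 10.7% were.

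The genes past 2-fold were Rip11, Rph and spri. Rip11, an effector of Rab11 that binds myosin V in photoreceptors, had 25.5 FPKM at 21 h against 62.0 at 40 h APF, a log2 ratio of 1.28. Another effector of Rab11, nuf, had 87.6 FPKM at 21 h against 87.9 at 40 h, and Rab11 itself had a log2 ratio of 0.19. Rph, the rabphilin gene, whose product binds Rab3 and Rab27 in mammals, had 22.3 FPKM at 21 h against 48.5 at 40 h, a log2 ratio of 1.12. The gene spri (sprint) encodes an exchange factor for Rab5 and had 47.1 FPKM at 21 h against 96.6 at 40 h, a log2 ratio of 1.04. Another exchange factor of Rab5 on the list, Rabex-5, had 14.7 FPKM at 21 h against 12.2 at 40 h.

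By class, 1 of 4 escort and prenylation genes, 7 of 12 exchange factors, 11 of 12 GTPase activating proteins and 21 of 30 effectors were higher at 40 h. These are 25%, 58.3%, 91.7% and 70% of each class, beside 49.1% of all expressed genes. Gdi, which extracts Rab proteins from membranes, was the most abundant gene of the whole list, with 286 FPKM at 21 h against 268 at 40 h APF. The sum of the Rab genes was 1.39-fold higher at 40 h, and 1.20-fold higher without Rab32. The most abundant GTPase activating protein gene was RN-tre, with 45.7 FPKM at 21 h against 56.6 at 40 h. The most abundant exchange factor gene at 40 h was spri, and among the effectors it was nuf at 40 h and btsz at 21 h, btsz having 94.9 FPKM at 21 h against 82.4 at 40 h.

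**Figure D4:**
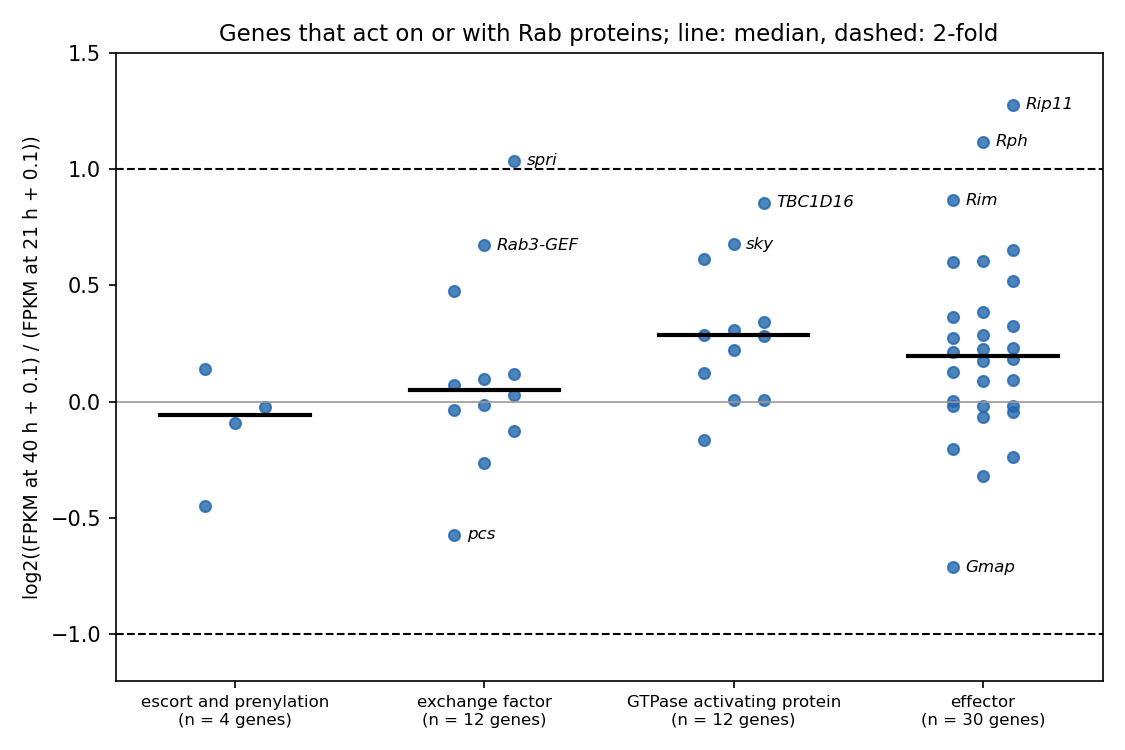
Points give the log2 ratio of 40 h over 21 h APF (y axis, 0.1 FPKM added) of 58 genes that act on or with Rab proteins, by class (x axis). Black lines are class medians and dashed lines mark 2-fold, which Rip11 at 1.28, Rph at 1.12 and spri at 1.04 pass. Names are given for some of the genes away from the medians.

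Other families of small GTPases were set beside the Rab genes in the same way. The Arf family had a median log2 ratio of 0.14 over 12 genes, and 9 of them (75%) were higher at 40 h. The Ras family had a median of 0.32 over 10 genes, and 7 of them (70%) were higher at 40 h. That share was 84.6% for the Rab genes and 49.1% for all expressed genes. The interquartile range of the log2 ratios was 0.32 wide for the Arf genes and 1.70 wide for the Ras genes, beside 0.42 for the Rab genes. Past 2-fold was 1 Arf gene (8.33%), lower at 40 h, where 10.7% of all expressed genes were. Past 2-fold and higher were 3 Ras genes (30%), where 14.8% of all expressed genes were. They were Rgk1, Rgk2 and Rgk3, and no other gene of the Ras list passed 2-fold. Rgk3 reached 1 FPKM at 40 h only, with 0.163 FPKM at 21 h against 1.41 at 40 h. With 1 pooled value per stage, no difference between these families and the Rab genes was tested.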

How the data were processed

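RNA sequencing libraries of whole Canton S pupal eyes, 3 for each of 2 stages, were analysed. The authors aligned reads to BDGP6 with bowtie2 (default parameters, Ensembl release 93) and quantified genes with Cuffdiff, and they deposited 1 FPKM per gene and stage, pooled over replicates, with bias correction and geometric scaling of the libraries. Tool versions are not given in the sources used here. Reads that span introns are not split by bowtie2, so the FPKM of genes with many short exons can be too low. The deposited columns of the authors' own comparison (fold change, test score, p-value, q-value, significance) were not used.

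Ratios are log2((FPKM at 40 h + 0.1)/(FPKM at 21 h + 0.1)), which understates differences of low genes. Genes with at least 1 FPKM at either stage were compared, and a difference of 2-fold was counted. No test was run, because the table has 1 pooled value per stage. Members were found by the name rule and grouped by known role. The members, lists and thresholds were chosen with earlier results of these data known. Named were all expressed members and, of the genes that act with Rab proteins, those past 2-fold and the most abundant of each class. Others were picked after their values were seen (ca, p, Rabex-5, elav, chp, the Rgk genes and genes that overlap or host a Rab gene). List symbols were matched to the table by symbol or identifier. A further gene list is not reported here.

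Positions, exons and protein lengths are from Ensembl release 115. Of 9207 genes alone at their locus, 99.1% lay at the same position within 1 base in both annotations. Python 3.11.15, numpy 2.4.6, pandas 2.3.3 and matplotlib 3.10.9 were used.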

Additional observations from a re-analysis of the deposited data

How the results depend on the processing

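No paired analysis was possible because the table holds 1 pooled value per stage, and for the same reason no replicate could be left out. The median log2 ratio of the Rab genes moved by less than 0.1 under every alternative run. The count of 22 of 26 genes higher at 40 h could not change with the pseudocount, which leaves the sign of a ratio as it is. Centring on the median of all genes, -0.017, and rescaling to the same sum shifted the ratios too little to change a sign. The ratio nearest 0 was -0.040, for Rab35. The count of 2-fold higher Rab genes, 2, became 1 with a pseudocount of 1 FPKM, where Rab26 had a log2 ratio of 0.89, and 1 with a minimum of 10 FPKM, which Rab26 does not reach. The count of lower ones, 1, became 0 under both, the ratio of Rab27 being -0.75 with the larger pseudocount, and 3 with no minimum, which adds RabX2 and RabX5 below and Rab9Fb above. The shares of all genes moved as well. With the larger pseudocount 12.5% were 2-fold higher and 8.02% lower, and with the minimum of 10 FPKM 12.7% and 6.77%. With no minimum they were 14.8% and 11.6%. With a 1.5-fold mark the Rab genes higher at 40 h numbered 6 of 26. Of the 58 genes that act with them, 11 were higher and 1, Gmap, was lower. Among all expressed genes, 22.6% were higher and 18.7% were lower at that mark.

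Leaving out genes whose locus in the table holds another gene left 17 expressed Rab genes, 0 of them 2-fold higher and 1 lower. Of the genes that act with Rab proteins, 1 was 2-fold higher. Of all expressed genes left, 14.7% were 2-fold higher and 12.1% lower. The locus of Rab32 holds CR44284, listed at 0 for 21 h and at 0.143 FPKM for 40 h. Leaving out the Rab genes that share exon bases with another gene, an alternative added after the data were seen, left 1 gene 2-fold higher, Rab32, since Rab26 shares 4.59% of its exon bases with CR46068. Without Rab32, left out after its values were seen, 1 gene was 2-fold higher, Rab26, and the median log2 ratio was 0.22. The table holds no read counts, so no counting error is given for genes near 1 FPKM, Rab27 among them.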
